A study of Mus musculus with 30 samples.

Results

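The genes described here make sterols and fatty acids or control the transcription factors that switch this synthesis on. They are 35 genes chosen by symbol, of 56941 genes in the count tables of a mouse hypothalamic cell line treated with cannabidiol (CBD), a non-psychotropic compound of hemp. The set holds 18 enzymes of sterol synthesis, 5 genes that control the sterol regulatory element binding proteins (SREBPs), 4 genes of sterol transport and 8 genes of fatty acid synthesis. The question was whether the sterol genes and the fatty acid genes changed with CBD over its doses, after 6 h and after 24 h.

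Cells of the mHypoA-2/12 line (Clu177) were used, 1 clone of neurons from the hypothalamus of an adult mouse, immortalized with the SV40 T antigen. All groups received DMEM with GlutaMAX and DMSO, as vehicle alone or with CBD at 4 doses, 3, 1.5, 0.75 and 0.325 µM. The methods name serum in the growth medium and none in the medium used for treatment, for vehicle and CBD alike. Each of the 10 groups of dose and time has 3 libraries of 3′ mRNA-Seq, and the labels do not say whether the 3 came from separate cultures, so p-values measure the spread between these libraries only. Single libraries are called by their numbers in the labels, A1 to A30.

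Cells sense their own cholesterol in the membrane of the endoplasmic reticulum. When sterols are plentiful, the INSIG proteins hold the escort protein SCAP there together with SREBP. When sterols run low, SCAP carries SREBP to the Golgi, proteases release its active part, and genes of lipid synthesis are switched on. SREBP-2, from *Srebf2*, mainly drives the sterol genes, and SREBP-1, from *Srebf1*, mainly the fatty acid genes. In the brain, cells make their own cholesterol because lipoproteins of the blood do not cross into it.

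Each library held between 1839621 and 4420675 reads on genes. In the line, neuronal markers were low or absent: *Npy*, *Pomc* and *Snap25* had 1, 3 and 4 reads over all 30 libraries and *Agrp* had 15, whereas *Tubb3* ranged from 27.99 to 67.1 CPM (counts scaled to the size of the library), *Map2* from 8.86 to 35.9 CPM and *Stmn2* from 6.75 to 26.5 CPM. The mesenchymal marker *Col1a1* ranged from 1771 to 2397 CPM. The astrocyte markers *Gfap* and *Aqp4* had 2 reads and 0 reads, where 0 reads allow up to 3 reads or 0.0356 CPM, counting error only, while *Aldh1l1* had 45 reads and *Slc1a3* 295. Of the microglial markers *Aif1* had 2 reads, *Cx3cr1* ranged from 2.93 to 30.4 CPM and *Tmem119* from 133 to 321 CPM. Levels below are CPM after TMM normalization over the 30 libraries.

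SREBPs bind a short DNA word in promoters, often next to a CCAAT box and a GC box. In a RefSeq table of 300-base promoters on GRCm38.p6, 27 of the 35 genes were found. The sterol response element TCACNCCAC, read on both strands, was present in 1 of the 27, *Hmgcs1*, and in 1.44% of all 27025 genes. Only exact matches to this word were counted, so forms that differ by 1 letter are missed. CCAAT was in 22 of the 27 genes and in 41.1% of all genes, and GGGCGG in 23 of the 27 and in 38.2%. CACGTG, an E box that SREBP-1 can also bind, was in 6 of the 27 and in 8.09% of all genes. In the sequences printed no match overlaps another. Such matches describe letters and are not evidence of binding. *Me1*, called over dose and between the times, holds no sterol response element and is not printed. The 250 bases before the start of 3 genes are printed here, 5′ to 3′ on the strand of the gene, with the matched words in capitals. *Hmgcs1* was chosen for its sterol response element, *Ebp* for its call between the times and *Scap* for its calls over dose.
*Hmgcs1* (chr13:119690101-119690350, plus strand): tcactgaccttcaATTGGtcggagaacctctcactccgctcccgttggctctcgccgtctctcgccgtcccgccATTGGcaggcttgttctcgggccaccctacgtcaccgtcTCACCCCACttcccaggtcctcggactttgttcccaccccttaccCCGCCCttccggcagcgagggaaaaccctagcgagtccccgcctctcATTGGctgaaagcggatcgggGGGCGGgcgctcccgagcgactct
*Ebp* (chrX:8193513-8193762, minus strand): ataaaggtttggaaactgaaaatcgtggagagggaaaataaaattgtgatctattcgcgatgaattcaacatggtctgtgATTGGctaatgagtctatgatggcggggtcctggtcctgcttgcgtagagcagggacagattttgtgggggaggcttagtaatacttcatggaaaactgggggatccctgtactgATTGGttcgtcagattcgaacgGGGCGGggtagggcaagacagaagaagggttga
*Scap* (chr9:110333038-110333287, plus strand): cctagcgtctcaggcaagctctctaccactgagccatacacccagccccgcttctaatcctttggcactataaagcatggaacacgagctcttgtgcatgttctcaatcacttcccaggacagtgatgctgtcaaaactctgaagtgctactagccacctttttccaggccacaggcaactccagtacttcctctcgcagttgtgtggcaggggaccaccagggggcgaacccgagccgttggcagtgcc
In *Hmgcs1* the element TCACCCCAC begins 137 bases before the start, between CCAAT boxes at 176 and 45 bases, which stand there as ATTGG on the other strand. *Ebp* has CCAAT boxes at 170 and 55 bases and a GC box at 33 bases, and the *Scap* sequence holds none of the 4 words. For *Scap* the table gives a further start downstream, with a GC box at 30 and CACGTG at 40 bases before it.

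Against vehicle, none of these genes passed the test with CBD at either time. Of the 35 genes, 33 had enough reads to be tested. *Idi1*, the isopentenyl diphosphate isomerase, had 18 reads in 10 libraries, and *Abcg1*, a cholesterol efflux pump, had 1 read in all. With the 4 doses pooled, 0 of 33 genes changed at 6 h, where 0.749% of all 12012 genes tested were called, and 0 of 33 at 24 h, where 0.107% of 12118 were called (edgeR quasi-likelihood test, Benjamini-Hochberg adjusted p below 0.1). DESeq2 also called 0 of them in both contrasts. In bulk RNA such as this, fewer cells of a kind and less RNA per cell cannot be told apart. Before adjustment, 5 genes at 6 h and 3 at 24 h had an edgeR p below 0.05, while 10.3% and 6.73% of all genes did. At single doses 0 of 33 were called as well, with 0.2%, 0.0749%, 0.0999% and 0.05% of all genes called from the lowest to the highest dose at 6 h, and 0.066%, 0.0825%, 0.0413% and 0.00825% at 24 h. In the same order, 6, 0, 5 and 3 of the 33 had an edgeR p below 0.05 before adjustment at 6 h, where 8.8%, 7.79%, 7.91% and 7.26% of all genes did. At 24 h these were 5, 4, 3 and 3, where 8.33%, 7.63%, 7.34% and 9.16% of all genes did.

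The precision of these comparisons was uneven. For 30 of the 33 genes at 6 h and 31 at 24 h, the 95% interval of the change with the 4 doses together lay within 1 log2 unit of 0, that is, inside a doubling or a halving. The exceptions were *Lss*, *Tm7sf2* and *Srebf1* at 6 h and *Tm7sf2* and *Srebf1* at 24 h, which had few reads. Over the 33 genes, the middle value of the interval's reach to each side was 0.35 log2 units at 6 h and 0.28 at 24 h. These intervals are not adjusted for the number of genes tested, and larger estimates also went uncalled. Examples are 0.44 for *Scap* at 6 h and 0.57 for *Fdft1* at 24 h. Changes of that size and smaller may not be detectable at this depth and number of libraries.

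**Figure D1:**
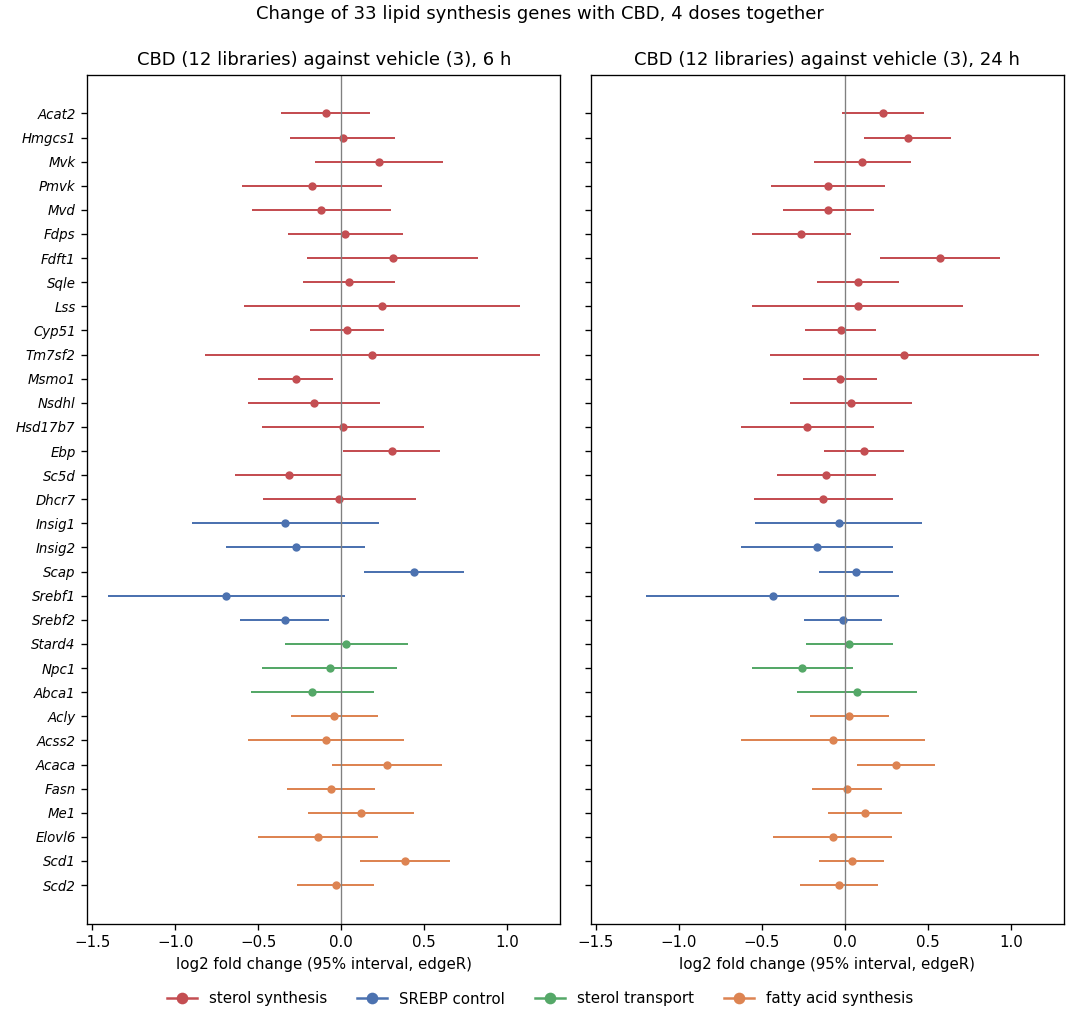
Log2 fold change of CBD (4 doses together, 12 libraries) against vehicle (3 libraries) for the 33 genes tested at 6 h (left) and 24 h (right), with points for the edgeR estimate, lines for its 95% interval and colours for the role of the gene. Most intervals cross 0, those of *Scap*, *Scd1* and *Ebp* at 6 h and of *Fdft1*, *Hmgcs1* and *Acaca* at 24 h lie above it, those of *Msmo1* and *Srebf2* at 6 h lie below it, and no gene passed the adjusted threshold.

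Among the 17 sterol enzymes tested, the median change with the 4 doses together was 0.0099 on the log2 scale at 6 h and 0.036 at 24 h, beside −0.019 and −0.0063 over all genes. At 6 h, 10 of the 17 had a positive and 7 a negative estimate. At 24 h these numbers were 9 and 8. *Fdps*, which builds farnesyl diphosphate, gave 0.025 (SE 0.17) at 6 h and −0.26 (SE 0.14) at 24 h. *Sqle*, the squalene epoxidase, gave 0.047 (SE 0.13) and 0.080 (SE 0.12), and *Cyp51*, the lanosterol demethylase, 0.035 (SE 0.11) and −0.024 (SE 0.10). Neither *Sqle* nor *Cyp51* moved beyond its error. For *Fdps* at 24 h, 10 of the 12 CBD libraries lay below all vehicle libraries and 1 above them. *Mvd*, the mevalonate diphosphate decarboxylase, gave −0.12 (SE 0.20) and −0.10 (SE 0.13), and *Hsd17b7*, a sterol ketoreductase, 0.0099 (SE 0.23) and −0.23 (SE 0.19). *Tm7sf2*, a sterol reductase, had 336 reads in all and gave 0.19 (SE 0.49) and 0.36 (SE 0.39). The 6 h estimates ranged from −0.32 for *Sc5d* to 0.31 for *Fdft1*, *Sc5d* being a late sterol desaturase, and the 24 h estimates from −0.26 for *Fdps* to 0.57 for *Fdft1*.

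The sterol enzymes with the smallest p at 6 h were *Msmo1* and *Ebp*. *Msmo1* (ENSMUSG00000031604, chr8:64718139-64733792 on GRCm38), a methylsterol monooxygenase that removes methyl groups from lanosterol products, was at 115, 115 and 131 CPM in vehicle at 6 h and ranged from 83.9 to 122 CPM with a median of 98.96 CPM over the 12 CBD libraries. All but 1 of the CBD libraries were below the vehicle libraries. Its log2 fold change was −0.28 (SE 0.11), with an adjusted p of 0.339 in edgeR (Benjamini-Hochberg). *Ebp* (ENSMUSG00000031168, chrX:8185329-8193512 on GRCm38), the isomerase that shifts the double bond of the sterol ring, was at 132, 118 and 111 CPM in vehicle and ranged from 121 to 207 CPM with a median of 151 CPM with CBD. Here 9 of 12 CBD libraries lay above all vehicle libraries, and the estimate was 0.30 (SE 0.14) with an edgeR Benjamini-Hochberg adjusted p of 0.439.

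At 24 h the smallest p values belonged to *Fdft1* and *Hmgcs1*. *Fdft1* (ENSMUSG00000021273, chr14:63145150-63179578 on GRCm38), the squalene synthase that commits the pathway to sterols, was at 18.4, 23.5 and 18.9 CPM in vehicle and ranged from 23.4 to 39.5 CPM with a median of 30.5 CPM with CBD. Of the CBD libraries, 11 of 12 lay above the vehicle range and the other one just inside it. The estimate on the log2 scale was 0.57 (SE 0.17), 95% interval 0.22 to 0.93, with an edgeR Benjamini-Hochberg adjusted p of 0.437. With the share of reads outside genes in the fit the estimate was 0.30. *Fdft1* overlaps *Ctsb* on the opposite strand, and the strand setting of the counting is not given in the sources used here, so reads of the pair may not be told apart. The same holds for *Hmgcs1* with *Gm48342*, *Scap* with *5830462I19Rik*, *Acaca* with *Gm11437*, *Me1* with *A330041J22Rik*, *Npc1* with *Rmc1* and *Cyp51* with *Akap9*.

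*Hmgcs1* (ENSMUSG00000093930, chr13:119690379-119708260 on GRCm38), which joins acetyl units to HMG-CoA early in the pathway and holds the sterol response element printed above, was at 58.5, 55.03 and 53.5 CPM in vehicle at 24 h. With CBD it was at 76.3, 71.5 and 78.9 CPM at 0.325 µM, 65.5, 71.4 and 89.2 CPM at 0.75 µM, 80.8, 64.97 and 77.9 CPM at 1.5 µM and 73.6, 72.6 and 51.7 CPM at 3 µM. All 9 libraries of the 3 lower doses lay above vehicle, and the 3 libraries of 3 µM lay on both sides of it. The share of reads outside genes split these libraries in the same way, at 20.9 to 22.2% in vehicle, 20.8 to 21.7% at 3 µM and 18.7 to 20.4% at the lower doses. The log2 fold change over the 4 doses was 0.38 (SE 0.12), 95% interval 0.12 to 0.63, with an edgeR Benjamini-Hochberg adjusted p of 0.503. With that share in the fit it was 0.22, and the part of the share in the result was not tested further. At 6 h the same contrast gave 0.0080 (SE 0.15). The change with CBD at 24 h minus that at 6 h was 0.38 (SE 0.20) for this gene, with an edgeR Benjamini-Hochberg adjusted p of 0.784.

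Of the controllers of SREBP, 1 had a positive and 4 a negative estimate at 6 h, with a median of −0.34. At 24 h the numbers were again 1 and 4, with a median of −0.038. None of the 5 was called. The positive estimate belonged to *Scap* at both times.

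*Scap* (ENSMUSG00000032485, chr9:110333288-110384950 on GRCm38), the sterol sensor and escort, was at 90.6, 77.4 and 123 CPM in vehicle at 6 h and ranged from 111 to 166 CPM with a median of 139 CPM with CBD. Of the 12 CBD libraries, 7 lay above all 3 vehicle libraries and 5 lay within their range, whose upper end was set by library A3. Its estimate was 0.44 (SE 0.14), with an edgeR Benjamini-Hochberg adjusted p of 0.23. Without A3 the estimate rose to 0.66 and the adjusted p was 0.0241, so that *Scap* was then called. When the share of reads that fell outside genes entered the fit, *Scap* was also called, as it was with no filter on low counts.

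*Srebf2* (ENSMUSG00000022463, chr15:82147181-82205379 on GRCm38), which encodes SREBP-2, was at 88.4, 102 and 79.4 CPM in vehicle at 6 h and ranged from 55.6 to 82.5 CPM with a median of 72.9 CPM with CBD. Here 11 of 12 CBD libraries were below the vehicle range. Its log2 fold change was −0.34 (SE 0.13), edgeR Benjamini-Hochberg adjusted p 0.308. At 24 h vehicle was at 72.2, 80.2 and 85.8 CPM and CBD ranged from 61.6 to 96.4 CPM with a median of 78.5 CPM, with 3 CBD libraries above, 6 inside and 3 below the vehicle range and a log2 fold change of −0.011 (SE 0.11).

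*Srebf1*, which encodes SREBP-1, had few reads, 497 over the 30 libraries. It was at 6.67, 9.07 and 13.3 CPM in vehicle at 6 h and ranged from 0.789 to 12.7 CPM with a median of 7.04 CPM with CBD, and the groups overlapped. At 24 h vehicle was at 4.43, 4.31 and 8.42 CPM and CBD ranged from 1.88 to 7.28 CPM with a median of 4.20 CPM, with 6 of 12 CBD libraries below vehicle and 6 inside its range. The log2 estimate was −0.69 (SE 0.34) at 6 h and −0.43 (SE 0.37) at 24 h, with edgeR Benjamini-Hochberg adjusted p values of 0.501 and 0.913. At 24 h the estimate was −0.061 without library A30 and turned to 0.35 with the share of reads outside genes in the fit. *Insig1* and *Insig2*, the anchors that keep SCAP in the endoplasmic reticulum, gave −0.34 (SE 0.27) and −0.27 (SE 0.20) at 6 h. At 24 h they gave −0.038 (SE 0.24) and −0.17 (SE 0.22). *Insig2* at 24 h was at 19.3, 16.6 and 19.9 CPM in vehicle and ranged from 7.53 to 23.7 CPM with a median of 16.98 CPM with CBD, on both sides of vehicle.

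Of the sterol transport genes, 3 were tested. *Npc1*, which exports cholesterol from lysosomes, was at 25.02, 28.8 and 33.6 CPM in vehicle and 18.8 to 37.6 CPM (median 26.99) with CBD at 6 h, and at 34.5, 26.9 and 37.7 CPM and 22.8 to 36.2 CPM (median 27.2) at 24 h. The groups overlapped at both times, with estimates of −0.070 (SE 0.19) and −0.26 (SE 0.14). *Abca1*, a pump that hands cholesterol to lipoproteins and is a target of the sterol-sensing liver X receptors, was at 23.9, 22.4 and 35.8 CPM in vehicle and 17.7 to 29.1 CPM (median 25.5) with CBD at 6 h, and at 22.1, 21.2 and 16.8 CPM and 15.8 to 25.1 CPM (median 21.98) at 24 h. Its groups overlapped too, with estimates of −0.17 (SE 0.18) and 0.073 (SE 0.17). *Stard4*, a soluble carrier of cholesterol, gave 0.030 (SE 0.18) and 0.027 (SE 0.13). The signs of *Npc1* and *Abca1* at 6 h turned without library A3, and that of *Abca1* at 24 h without A30.

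The 8 fatty acid genes were all tested. Their median change with the 4 doses together was −0.038 at 6 h, with 3 positive and 5 negative estimates, and 0.019 at 24 h, with 5 and 3. Leaving out 1 library moved these medians from −0.042 to 0.047 at 6 h and from −0.018 to 0.066 at 24 h, so that neither sign was kept. *Fasn*, the fatty acid synthase itself, was at 335, 348 and 229.6 CPM in vehicle at 6 h and ranged from 246 to 380.2 CPM with a median of 285 CPM with CBD, 11 of the 12 libraries inside the vehicle range. Its log2 fold change was −0.063 (SE 0.13) at 6 h and 0.010 (SE 0.10) at 24 h, with 95% intervals of −0.32 to 0.20 and −0.19 to 0.22. *Acly*, which makes cytosolic acetyl-CoA from citrate, gave −0.042 (SE 0.12) and 0.028 (SE 0.11), and *Acss2*, which makes it from acetate, −0.089 (SE 0.23) and −0.071 (SE 0.27).

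*Scd1* (ENSMUSG00000037071, chr19:44394455-44407879 on GRCm38), a stearoyl-CoA desaturase that puts the double bond into oleate, had the smallest p of the class at 6 h. Vehicle was at 126, 99.8 and 92.5 CPM and CBD ranged from 111 to 163 CPM with a median of 141 CPM. Of the 12 CBD libraries 10 lay above the vehicle range. On the log2 scale the change was 0.38 (SE 0.13), 95% interval 0.12 to 0.65, edgeR Benjamini-Hochberg adjusted p 0.248. With the share of reads outside genes in the fit *Scd1* was called, at 0.41 with an edgeR Benjamini-Hochberg adjusted p of 0.060. Its paralogue *Scd2*, whose transcripts resemble those of *Scd1*, gave −0.034 (SE 0.11).

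*Acaca* (ENSMUSG00000020532, chr11:84129672-84401651 on GRCm38), the acetyl-CoA carboxylase that makes malonyl-CoA and sets the pace of fatty acid synthesis, was the only one of the 33 genes whose 12 CBD libraries all lay above the 3 vehicle libraries at 24 h. Over all genes tested, 0.338% were separated in this direction. Vehicle was at 68.5, 57.7 and 64.97 CPM. With CBD it was at 76.3, 78.1 and 78.4 CPM at 0.325 µM, 94.6, 72.2 and 85.4 CPM at 0.75 µM, 69.8, 73.7 and 78.4 CPM at 1.5 µM and 70.3, 93.6 and 81.1 CPM at 3 µM, with overlap between the doses. The change on the log2 scale was 0.31 (SE 0.11), 95% interval 0.077 to 0.54, and the edgeR Benjamini-Hochberg adjusted p was 0.604. At 6 h *Acaca* was at 59.5, 46.4 and 51.9 CPM in vehicle and ranged from 52.2 to 82.04 CPM with a median of 63.3 CPM with CBD, 7 of 12 above vehicle, and the estimate was 0.28 (SE 0.16). At that time 0 of the 33 genes were separated from vehicle in all libraries, where 1.46% of all genes were.

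The sterol genes and the fatty acid genes were next compared within libraries over dose. For each library, the median over the genes of a class was taken of log2(CPM + 1) minus the vehicle mean of that gene at that time. At 6 h the sterol median was 0.021 ± 0.12 (SD, n = 3) in vehicle and 0.0003 ± 0.018, −0.0074 ± 0.059, −0.0052 ± 0.036 and 0.035 ± 0.089 from 0.325 to 3 µM. The fatty acid median was −0.0013 ± 0.054 in vehicle and −0.0091 ± 0.11, −0.070 ± 0.085, 0.068 ± 0.091 and 0.066 ± 0.045 with CBD. The libraries of each dose overlapped those of vehicle in both classes.

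At 24 h the sterol median was 0.0042 ± 0.038 in vehicle and −0.0012 ± 0.055, 0.037 ± 0.043, 0.072 ± 0.13 and 0.0093 ± 0.12 from 0.325 to 3 µM (SD, n = 3 each), and the doses again overlapped vehicle. The fatty acid median was 0.0093 ± 0.034 in vehicle and 0.030 ± 0.0055, −0.012 ± 0.047, 0.035 ± 0.023 and 0.065 ± 0.12 with CBD.

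Within libraries, the sterol median minus the fatty acid median at 24 h was −0.028, 0.074 and −0.061 in vehicle. It was 0.028, −0.069 and −0.052 at 0.325 µM, 0.057, 0.040 and 0.049 at 0.75 µM, −0.046, 0.17 and −0.0095 at 1.5 µM and −0.047, −0.094 and −0.026 at 3 µM. The sterol genes were thus the higher class in 3 of 3 libraries at 0.75 µM and the lower class in 3 of 3 at 3 µM, with no overlap between these doses, while vehicle, 0.325 and 1.5 µM had both signs. All but 1 of the 6 libraries of 0.75 and 3 µM lay inside the range of vehicle. At 6 h the difference was −0.078, 0.16 and −0.018 in vehicle. It was −0.0026, −0.092 and 0.12 at 0.325 µM, 0.024, 0.14 and 0.026 at 0.75 µM, −0.19, −0.059 and 0.027 at 1.5 µM and −0.060, −0.062 and 0.030 at 3 µM. Here 0.75 µM had 3 positive values of 3, all inside the range of vehicle, and the other doses had both signs. These are descriptions of chosen classes and carry no test.

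**Figure D2:**
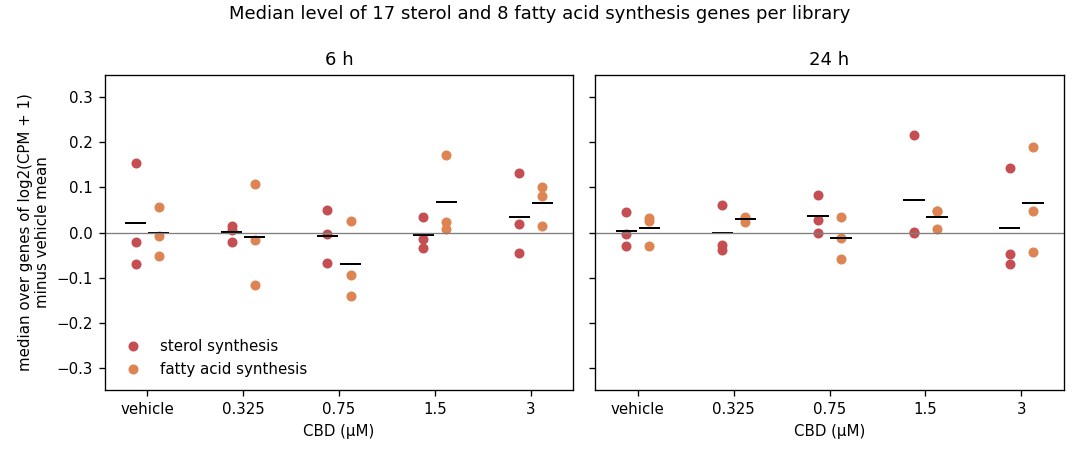
Median over 17 sterol genes (red) and 8 fatty acid genes (orange) of log2(CPM + 1) minus the vehicle mean, by CBD dose at 6 h (left) and 24 h (right), with a point per library and a black line at the mean of 3 libraries. All points lie between −0.14 and 0.22, and the points of both classes overlap at every dose and time.

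Among the CBD doses, no difference was called at 6 h, for the 33 genes or for any of the 12012 tested, by a slope over log2 dose, by 3 µM against the 3 lower doses, or by any difference among the doses (edgeR), and DESeq2 called 0 of the 33 genes in these tests. Before adjustment, 2, 1 and 1 of the 33 genes had an edgeR p below 0.05 in these 3 tests, beside 4.27%, 5.19% and 3.76% of all genes. At 24 h a few genes differed between the doses. In 3 µM against the 3 lower doses, *Scap* and *Me1* were lower and *Scd1* was higher, 3 of 33, where 10.5% of all genes were called, 6.36% higher and 4.16% lower. That contrast was known from earlier results of these data to hold many genes, so its calls only describe where the 33 genes lie. The slope called *Scap*, falling with dose, and *Pmvk*, rising with dose, 2 of 33, beside 3.13% of all genes, 2.15% rising and 0.982% falling. Any difference among the doses was called for *Scap* alone, beside 1.93% of all genes. Read against these shares, the counts do not set the 33 genes apart. The libraries of 3 µM and of the lower doses did not overlap in 3 of the 33 genes, *Scap*, *Me1* and *Scd1*, and in 4.6% of all genes.

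*Scap* at 24 h was at 177, 191 and 145 CPM at 0.325 µM, 139.8, 174 and 157 CPM at 0.75 µM, 182, 154 and 150.4 CPM at 1.5 µM and 97.03, 119 and 124 CPM at 3 µM, with 148, 135 and 142 CPM in vehicle. The 3 libraries of 3 µM were below all 9 of the lower doses and below vehicle too. Against vehicle alone, 3 µM at 24 h called 0 of the 33 genes. There 4 of the 33 genes did not overlap, beside 1254 of all 12118 genes. In 3 µM against the lower doses *Scap* gave −0.51 (SE 0.11), edgeR Benjamini-Hochberg adjusted p 0.0119, and the slope was −0.16 (SE 0.040) per doubling of the dose, adjusted p 0.0445. The call against the lower doses was lost without library A16, the lowest of the 3 at 3 µM, with an edgeR adjusted p of 0.142. That of the slope was lost without A16, A25 or A26.

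*Me1* (ENSMUSG00000032418, chr9:86581371-86695953 on GRCm38), the cytosolic malic enzyme that supplies NADPH for lipid synthesis, was at 168, 155 and 133 CPM at 0.325 µM, 143, 137 and 148 CPM at 0.75 µM, 147, 144 and 148 CPM at 1.5 µM and 104, 123 and 106 CPM at 3 µM at 24 h. Vehicle was at 147, 102 and 126 CPM. The 3 µM libraries were below all 9 of the lower doses and inside the vehicle range. For 3 µM against the lower doses the estimate was −0.39 (SE 0.11), edgeR Benjamini-Hochberg adjusted p 0.0401, and the call was lost without A16 or A18. Over the 4 doses together against vehicle, *Me1* gave 0.12 (SE 0.10) at 24 h and 0.12 (SE 0.15) at 6 h.

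*Scd1* at 24 h was at 116, 113 and 118 CPM at 3 µM and ranged from 91.4 to 108 CPM with a median of 96.8 CPM over the lower doses, with 93.2, 102 and 101 CPM in vehicle. All 3 libraries of 3 µM were above the other 12 of that time, and against vehicle alone 3 µM did not call *Scd1*. Against the lower doses the estimate was 0.27 (SE 0.095), edgeR Benjamini-Hochberg adjusted p 0.0948, and each of the 15 fits that left out 1 library lost the call. *Pmvk* (ENSMUSG00000027952, chr3:89454541-89469013 on GRCm38), the phosphomevalonate kinase, was at 20.96, 18.98 and 26.2 CPM at 0.325 µM and 34.4, 30.2 and 42.1 CPM at 3 µM, which do not overlap, with 25.4, 36.8 and 29.6 CPM in vehicle. Its slope was 0.21 (SE 0.064) per doubling, edgeR Benjamini-Hochberg adjusted p 0.0934, and 10 of the 15 fits without 1 library lost it.

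The direction at 3 µM differed between the classes in description: 7 of 8 fatty acid genes had a positive estimate against the lower doses, with a median of 0.19, and 7 of 17 sterol genes, with a median of −0.042. The median over all genes was 0.0053, and the median size of change without sign was 0.23. Taken per library against vehicle, the fatty acid median was 0.19 in A16, 0.047 in A17 and −0.043 in A18. Only A16 lay above the range of the lower doses, −0.059 to 0.049. The share of uniquely mapped reads that fell outside genes moved with this contrast, at 21.4% ± 0.487 (SD, n = 3) at 3 µM and 19.5% ± 0.464 (SD, n = 9) at the lower doses, with no overlap. With that share in the fit, 0 of the 33 genes were called in the 3 tests among doses at 24 h, and 30 genes of all in 3 µM against the lower doses. The estimates kept their direction and changed by less than 1.5 times in that fit: −0.69 for *Scap*, −0.35 for *Me1* and 0.23 for *Scd1* in 3 µM against the lower doses, and slopes of −0.21 for *Scap* and 0.25 for *Pmvk*, with edgeR Benjamini-Hochberg adjusted p values from 0.196 to 0.665. The share and the dose cannot be told apart in these libraries. The summed neuronal markers were at 81.6 to 111.6 CPM at 3 µM and at 83.0 to 112 CPM at the lower doses. The mesenchymal markers were at 6583 to 7132 CPM and 6473 to 7827 CPM, so that the ranges of both lists overlapped. The summed microglial markers were at 217 to 279 CPM at 3 µM, with a mean of 258 CPM. At the lower doses they were at 270 to 334 CPM, with a mean of 296 CPM. These ranges overlapped only at their ends, and the difference was not tested.

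**Figure D3:**
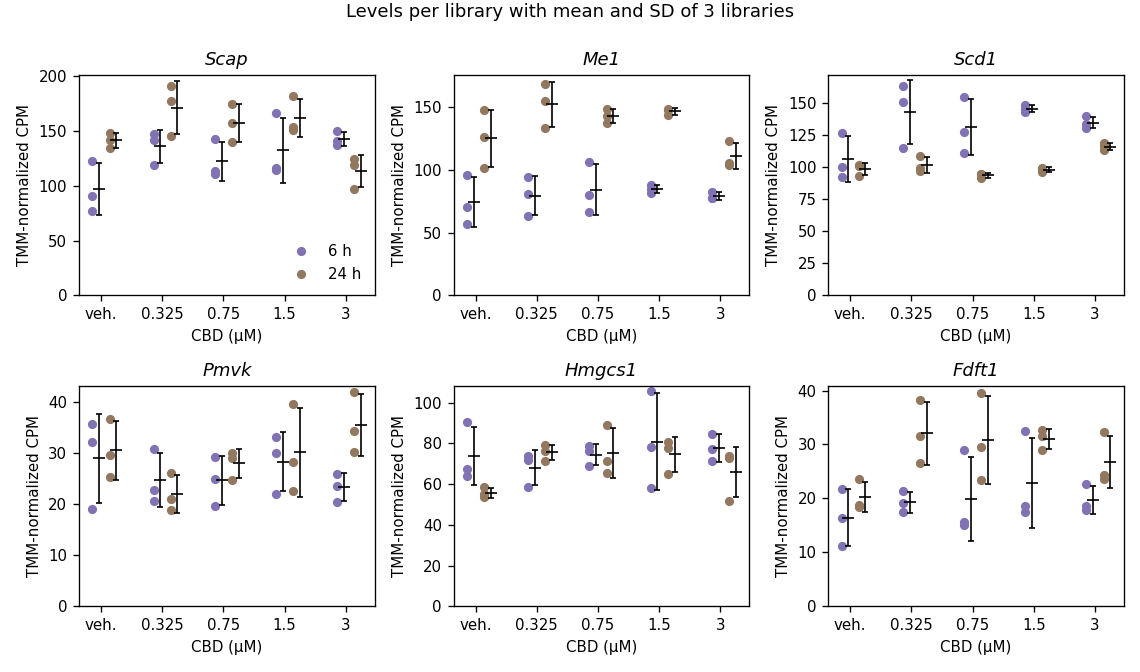
TMM-normalized CPM of 6 genes by CBD dose at 6 h (purple) and 24 h (brown), with a point per library and black marks for the mean and SD of 3 libraries. At 24 h *Scap* and *Me1* are lowest among the CBD doses at 3 µM and *Scd1* is highest there, and the 3 lower doses of *Hmgcs1* sit above its vehicle libraries.

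More of these genes were called between the times than with CBD. In vehicle, 6 of 33 genes differed between 24 h and 6 h, 3 higher and 3 lower, where 26.7% of all 12790 genes were called, 12.5% higher and 14.2% lower (edgeR, Benjamini-Hochberg adjusted p below 0.1). In the CBD libraries, 18 of 33 differed, 9 higher and 9 lower, where 53.6% of all genes were called, 26% higher and 27.6% lower. The first share of the 33 genes lay below the background and the second close to it. Vehicle has 3 libraries per time and CBD has 12, so the 2 counts cannot be set against each other. In vehicle, 8 of the 33 genes did not overlap between the times, beside 31.8% of all genes. The 2 times were separate harvests, and time cannot be told apart from plate, harvest or library preparation.

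Higher at 24 h in vehicle were *Me1*, *Ebp* and *Scap*. *Me1* went from 56.7, 70.4 and 95.5 CPM at 6 h to 147, 102 and 126 CPM at 24 h, with no overlap. Its log2 fold change was 0.73 (SE 0.17) in vehicle and 0.74 (SE 0.083) in CBD, with edgeR Benjamini-Hochberg adjusted p values of 0.00176 and 2.94e-09. *Ebp* rose from the 6 h values above to 192, 146 and 195 CPM, a log2 fold change of 0.56 (SE 0.17) in vehicle and 0.38 (SE 0.081) in CBD (edgeR Benjamini-Hochberg adjusted p 0.0129 and 0.000208). *Scap* rose by 0.53 (SE 0.16) in vehicle, adjusted p 0.0155 in edgeR (Benjamini-Hochberg), a call lost without library A2. *Me1* and *Ebp* kept the vehicle call in each of the 36 alternatives run.

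Lower at 24 h in vehicle were the desaturase *Scd2*, the elongase *Elovl6*, which lengthens palmitate to stearate, and *Hmgcs1*. *Scd2* was at 239, 258 and 203 CPM at 6 h and 174, 205 and 153 CPM at 24 h, overlapping through library A29. *Elovl6* was at 36.1, 33.6 and 33.3 CPM and 24.5, 21.5 and 23.9 CPM, with no overlap. *Hmgcs1* was at 67.3, 64.03 and 90.2 CPM at 6 h, all above its 24 h values. The log2 fold changes in vehicle were −0.39 (SE 0.14) for *Scd2*, −0.55 (SE 0.21) for *Elovl6* and −0.42 (SE 0.18) for *Hmgcs1*, with edgeR Benjamini-Hochberg adjusted p values of 0.0456, 0.0613 and 0.085. Each of these 3 calls was lost in some of the 30 fits that left out 1 library. *Hmgcs1* lost it in 20, mostly fits without a CBD library, which is not part of the contrast. Its estimate was −0.22 without A3 and −0.20 with the share outside genes in the fit. *Elovl6* lost the call in 6 fits, those without A1, A2, A3, A28, A29 or A30. Its estimate stayed between −0.58 and −0.49 over the 30 fits. *Scd2* lost the call in 4.

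In the CBD libraries the sterol enzymes *Fdft1*, *Lss*, *Ebp*, *Mvk* and *Acat2* rose and *Dhcr7* and *Nsdhl* fell between 6 h and 24 h. *Fdft1* was at 15.004 to 32.4 CPM (median 18.6) at 6 h and 23.4 to 39.5 CPM (median 30.5) at 24 h, a change of 0.56 (SE 0.13) with an edgeR Benjamini-Hochberg adjusted p of 0.000431. *Lss*, which folds squalene epoxide into lanosterol, was at 2.39 to 8.59 CPM (median 5.15) and 2.54 to 16.1 CPM (median 7.33), a change of 0.60 (SE 0.22). Both sets of libraries overlapped between the times. *Mvk*, the mevalonate kinase, changed by 0.34 (SE 0.10), from 30.9 to 53.8 CPM (median 34.7) to 35.5 to 61.2 CPM (median 48.1). *Acat2*, the cytosolic thiolase, changed by 0.24 (SE 0.076), from 68.4 to 102 CPM (median 82.4) to 75.2 to 118 CPM (median 96.3). *Dhcr7* and *Nsdhl*, late enzymes that reduce and demethylate the sterol, changed by −0.38 (SE 0.13) and −0.31 (SE 0.12). *Dhcr7* was at 16.5 to 28.6 CPM (median 20.97) at 6 h and 11.3 to 21.5 CPM (median 15.8) at 24 h. *Nsdhl* was at 18.2 to 31.9 CPM (median 26.8) and 14.6 to 26.8 CPM (median 20.1). All of these ranges overlap.

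Of the fatty acid genes in the CBD libraries, *Me1* and *Acaca* rose, and *Scd1*, *Scd2*, *Elovl6* and *Acly* fell. *Scd1* fell by 0.44 on the log2 scale (SE 0.067, edgeR Benjamini-Hochberg adjusted p 1.29e-06), and 9 of the 12 CBD libraries of 24 h were below all 12 of 6 h. In vehicle *Scd1* gave −0.10 (SE 0.14). *Scd2* was at 196 to 287 CPM (median 219.9) at 6 h and 155 to 247 CPM (median 167) at 24 h in CBD, and its highest library of 24 h was A16, 1 of the 3 at 3 µM. The other 11 libraries were below the 6 h range. *Me1* in CBD was at 63.5 to 106 CPM (median 80.98) at 6 h and 104 to 168 CPM (median 143) at 24 h, with 10 of 12 libraries of 24 h above all of 6 h. *Elovl6* changed by −0.49 (SE 0.11), from 20.98 to 37.2 CPM (median 31.9) to 14.1 to 26.1 CPM (median 23.5). *Acaca* changed by 0.31 (SE 0.084) and *Acly* by −0.16 (SE 0.076), the latter from 78.96 to 136 CPM (median 110.4) to 82.6 to 116 CPM (median 98.6) with overlap. *Scap* and *Srebf2* rose, by 0.16 (SE 0.079) and 0.15 (SE 0.075), and *Srebf1* fell, at −0.55 (SE 0.25). *Stard4* and *Abca1* of the transport genes fell, at −0.36 (SE 0.098) and −0.22 (SE 0.11), *Stard4* from 37.8 to 76.2 CPM (median 57.2) to 39.9 to 55.2 CPM (median 44.04). The calls of *Abca1*, *Acly*, *Scap*, *Srebf1* and *Srebf2* were lost in some of the alternatives and the other 13 were kept in all that could be run.

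**Figure D4:**
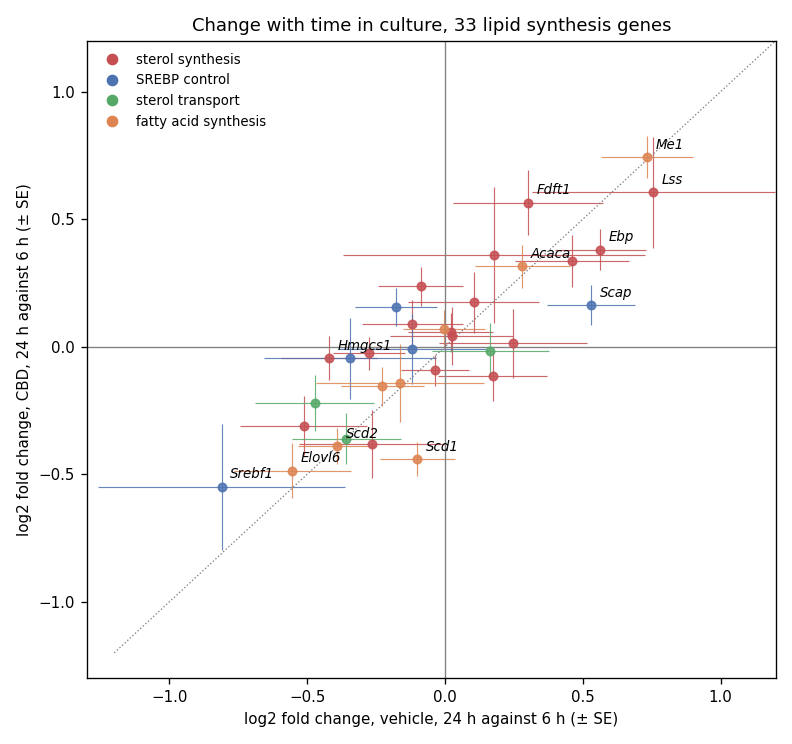
Log2 fold change of 24 h against 6 h in vehicle (3 against 3 libraries, horizontal) and in CBD (12 against 12 libraries, vertical) for the 33 genes, with bars for the standard error, colours for the role of the gene and a dotted line where both are equal. *Me1* stands at 0.73 and 0.74, *Scd1* at −0.10 and −0.44, and *Scap* at 0.53 and 0.16.

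The change from vehicle to CBD was tested for a difference between 24 h and 6 h over all 30 libraries. Of the 33 genes 0 were called by edgeR or DESeq2, where edgeR called 0.235% of all genes. Before adjustment 2 had an edgeR p below 0.05, beside 6.52% of all genes. For *Scd1* the difference was −0.34 (SE 0.15), 95% interval −0.65 to −0.033, with an edgeR Benjamini-Hochberg adjusted p of 0.733. For *Scap* it was −0.37 (SE 0.18), 95% interval −0.73 to −0.0079, with an edgeR Benjamini-Hochberg adjusted p of 0.757. With CBD at 24 h the estimates were 0.043 (SE 0.092) for *Scd1* and 0.067 (SE 0.10) for *Scap*, below the 6 h values given above.

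A further 42 genes of the same pathways, such as the SREBP proteases, sterol esterification and acyl-CoA synthetases, were listed by pathway and not by how they moved. Of these, 40 were tested at 6 h and 41 at 24 h, and 0 were called for CBD against vehicle at any dose or over the 4 doses. In 3 µM against the lower doses at 24 h, 1 of 41 was called, *Nus1*, a subunit of the enzyme that makes dolichol, at −0.44 (SE 0.15, edgeR Benjamini-Hochberg adjusted p 0.0829). Of all genes 10.5% were called in that contrast. With time, 4 of 41 rose and 7 fell in vehicle, where 12.5% and 14.2% of all genes did, and 7 rose and 16 fell in CBD, where 26% and 27.6% of all genes did. In CBD, *Soat1*, which esterifies cholesterol, gave −0.45 (SE 0.080) and *Nr1h3*, a liver X receptor, 1.10 (SE 0.15). *Mbtps1*, the protease that makes the first cut in SREBP, rose by 0.65 (SE 0.13) in vehicle with an edgeR Benjamini-Hochberg adjusted p of 0.000429.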

How the data were processed

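The deposited counts are raw reads per Ensembl gene, 1 table per library, made by the authors with trimming in Flexbar, mapping to GRCm39 in STAR 2.7.5c and counting in HTSeq 1.99.2. The strand setting of the counting is not given in the sources used here. QuantSeq libraries hold 1 fragment near the 3′ end of a transcript, so that counts need no correction for length. The summary lines of the tables (reads outside genes, ambiguous reads) were left out of the counts and gave the share of reads outside genes.

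Libraries were grouped by their titles. In edgeR 4.0.16 (R 4.3.3) the steps were filterByExpr on the groups, TMM normalization and the quasi-likelihood F-test, with 15 libraries per time and a mean per group, and with all 30 libraries for contrasts of time. Each contrast was adjusted by Benjamini-Hochberg across its whole table, genes under 0.1 were called, and only the rows of the genes described are printed. Standard errors are the log2 fold change divided by the square root of F. The steps were also run on simulated data, without change and with a doubling or halving of chosen genes. The outcome is not reported here, and smaller changes were not simulated. Pairs of libraries of a group differed by more than sampling noise (chi-square per gene from 2.13 to 10.7), so none was counted as a repeat of another. In vehicle at 6 h the value was 10.7 for A1 with A3, 9.69 for A2 with A3 and 2.15 for A1 with A2. A3 held 3574833 reads on genes with 17.9% outside genes. A1 and A2 held 1839621 and 1919498, with 21.4% and 20.8% outside. All 6 h contrasts with vehicle use A3. Another high pair was A16 with A17, at 9.31. The sums of neuronal, mesenchymal and microglial markers use CPM without TMM.

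The members and lists were chosen with earlier results of these data known. The genes described with full values are those called in a contrast and, per class and time, the 2 with the smallest p for the 4 doses together. Other members are given by their estimates, Fasn also by its levels, chosen after its values were seen. Gene symbols and coordinates are those of GENCODE M21 (GRCm38), older than the assembly of the counts. Promoters came from RefSeq (GRCm38.p6), 250 bases before to 50 after a start. The alternatives were DESeq2 1.42.0, RLE normalization, all genes without a filter, a minimum of 10 counts per library, removal of mitochondrial genes, the share outside genes as covariate, only the 2 groups compared, and each library left out in turn.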

Additional observations from a re-analysis of the deposited data

How the results depend on the processing

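No paired analysis was possible because no replicate number links libraries of different groups. In the contrasts of CBD with vehicle at 24 h, 0 of the 33 genes were called under every alternative run. At 6 h, the 4 doses together called 1 gene with no filter on low counts and 2, Scap and Scd1, with the share outside genes as covariate. The single doses called 3 with that covariate. Leaving out 1 library in turn gave 0 to 1 genes in both. At 24 h the covariate gave 0 genes for the slope, for 3 µM against the lower doses and for any difference among the doses, while the estimates kept their direction (Scap −0.69, Me1 −0.35 and Scd1 0.23 at 3 µM, slopes of −0.21 for Scap and 0.25 for Pmvk). Over the 4 doses at 24 h it gave medians of −0.068 for the sterol and 0.080 for the fatty acid genes, 0.22 for Hmgcs1 and 0.30 for Fdft1. Leaving out 1 library gave 0 to 3 genes for the slope, 0 to 6 for 3 µM against the lower doses, where 0 were called without A16, 1 without A18 and 6 without A17, and 0 to 1 for any difference. It gave a sterol median at 6 h of 0.00072 to 0.091, the highest without A2, and −0.021 to 0.067 at 24 h. The fatty acid medians ranged from −0.042 to 0.047 and from −0.018 to 0.066. Between the vehicle groups, no filter on low counts called 3 genes, and leaving out 1 library called 3 to 7, with 3 without A28. Between the CBD times the range was 13 to 17. Of the values of single genes, 6 of 1301 turned sign. With the covariate, Srebf1 at 24 h was 0.35 and Abca1 −0.059. Leaving out 1 library gave −0.030 (without A30) to 0.15 for Abca1 and −0.0023 (without A29) to 0.26 for Me1 at 24 h. At 6 h it gave −0.16 to 0.060 for Npc1 and −0.29 to 0.098 for Abca1, the highest of each without A3. The cause was not tested. Among single genes, 167 values lost a call and 4 gained one. With 3 vehicle libraries per time, each of them bears on every contrast with vehicle, and Lss, Tm7sf2, Insig1 and Srebf1 had too few reads for small changes to be detectable.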
